A study of Bos taurus with 12 samples.

Results

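The arrays carrying replicate number 2 in their titles were set against those carrying numbers 1 and 3, in cultured bovine aortic endothelial cells under 4 kinds of flow. They are 4 of the 12 arrays of the study, 1 in each flow group, and the other 8 are the reference. Each offset is the log2 value of the number 2 array of a flow group minus the mean of the other two arrays of that group, and the mean offset is taken over the 4 groups. Number 2 was singled out, chosen by the measured values of these same arrays, so its offsets are given as a description without a test, and no count of them supports a statement beyond these arrays.

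The cells came from the aorta, were at passage 15, and were grown to confluence over 5 days on glass coverslips in medium with 10% serum. All were moved for 24 h to medium with 5% serum and 8% Dextran 70, which thickens the fluid, and were then kept under flow for 24 h in a flow loop. The groups were a negative gradient of wall shear stress (WSS), a positive gradient of it, a uniform baseline WSS of 3.5 Pa and a uniform high WSS of 28.4 Pa, with 3 arrays in each. The labels do not say what a replicate number stands for, whether replicates were separate cultures, or what the local stress in the gradient chambers was. P-values therefore measure only the spread between these samples. The number in the title of each array is 1 below the number in its description.

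Endothelial cells that meet interleukin 1, tumour necrosis factor or bacterial products switch on NF-kB, a family of transcription factors held in the cytoplasm by inhibitory IkB proteins. The activated cells release chemokines, display selectins, ICAM1 and VCAM1 to catch leukocytes, and make prostaglandins and matrix-degrading enzymes, together with inhibitors that later damp NF-kB itself. Confluent endothelium otherwise divides little, and the transcripts of DNA replication and mitosis report how many cells are in cycle.

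In the deposited log2 matrix, 24016 probe sets besides the controls were read, and they covered 3977 named genes. Array medians lay between 5.65 and 5.72. Flow group took 42.1% of the sum of squares over all probe sets. Of the part left within flow groups, the contrast of number 2 with the other two took 34.3%, that of number 1 took 27.5% and that of number 3 took 18.1%, with the 3 contrasts overlapping. The array labelled high WSS replicate 3 lay nearer to positive gradient replicate 3 than any other of the 66 pairs (root mean square difference 0.197), and 0.442 and 0.441 from the other arrays of its own group. Without it 2 of the 155 genes chosen for naming changed the sign of their mean offset, ADAMTS1 and AIF1L, and no mean offset of those genes moved by more than 0.39. The medians of the 34 gene lists used here moved by at most 0.11 without it, and 2 near 0 changed sign.

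Across all probe sets, 824 were called at an adjusted p under 0.05 by limma for number 2 against the other two (3.43% of those tested), 486 of them higher (2.02%) and 338 lower (1.41%). These counts come from the contrast that chose number 2 and nothing is read from them. In the gradient arrays alone 150 were called and in the uniform-flow arrays alone 69. Leaving out an array gave 335 calls without baseline WSS replicate 2, 361 without negative gradient replicate 2, 459 without positive gradient replicate 2 and 521 without high WSS replicate 2. Mean offsets were positive in 1759 of the 3977 named genes and negative in 2218. Of the named genes, 407 had the number 2 array above both others in every flow group (10.2%), and 448 had it below both (11.3%). In 146 genes all 4 number 2 arrays lay above all 8 others (3.67%), and in 72 they lay below all 8 (1.81%).

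The cells carried markers of endothelium whatever their replicate number. PECAM1, a junctional adhesion molecule, lay between 11.6 and 12.1 in the number 2 arrays and between 11.8 and 12.2 in the others, and CDH5, the endothelial cadherin, had a mean offset of 0.12 ± 0.0934 (standard error of the fit with flow group as a block). These 2 do not stand for all 15 measured endothelial markers, of which 12 had a negative mean offset (median −0.12). In 5 of the 15 (33.3%) number 2 was at the bottom in every flow group, against 11.3% of all named genes. In 1 it was on top. Among 24 genes listed as leukocyte markers only CD14, the lipopolysaccharide co-receptor of monocytes, had a named probe set. It read 7.12 under the negative gradient, 5.52 under the positive gradient, 7.99 at baseline and 6.09 at high stress in the number 2 arrays, against 3.98 to 6.09 with a median of 4.52 in the others. The ranges overlapped, but in every flow group the number 2 array was the highest of the 3. Both measured smooth muscle markers had lower values in number 2, TAGLN with a mean offset of −0.75 and SMTN of −0.48, and 4 of the 5 fibroblast markers did. The part of leukocyte RNA in the results was not tested, and in bulk RNA fewer cells of a type and less RNA per cell cannot be told apart. Control probe sets at the ends of a transcript, which report RNA integrity, gave mean 3′ minus 5′ differences higher in number 2 by 0.0652 for EF1A, 0.0964 for GAPDH and 0.206 for ACTB, with overlapping ranges. For GAPDH the difference was 0.0403 to 0.337 in the gradient arrays and 0.594 to 0.703 in the uniform-flow arrays. The array labelled high WSS replicate 3 was the exception, at 0.0886. For EF1A it was −2.16 to −1.54 and −1.42 to −1.04, with −2.03 in that array. For ACTB the gradient and uniform-flow arrays overlapped. The part of these differences in the results was not tested.

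Chemokines, the secreted proteins that draw leukocytes, held the highest offsets among the named genes. Of 13 measured, 11 had a positive mean offset, 9 had the number 2 array on top in every flow group, and the median was 1.63, against −0.03 over all named genes. CXCL2, a neutrophil attractant, read 12.1, 12.0, 12.2 and 12.0 in the number 2 arrays under the negative gradient, the positive gradient, baseline and high stress, against 5.53 to 7.83 with a median of 6.77 in the others. Its groups were far apart and its number 2 arrays nearly equal, with a mean offset of 5.31 ± 0.23, or 39.6-fold. CCL5, an attractant of T cells and monocytes, read 11.5, 9.58, 11.8 and 9.36 in the same order of flow groups, against 4.68 to 6.89 in the others (mean offset 5.09 ± 0.28, 34.0-fold).

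CCL2, the chief attractant of monocytes, read 11.6, 9.97, 11.6 and 10.3 in number 2 and between 3.96 and 8.22 elsewhere (mean offset 4.68 ± 0.55). The other arrays were themselves divided by number for this gene, as described further on. CXCL8, the neutrophil attractant also called interleukin 8, read 12.5, 12.2, 12.6 and 12.2 in number 2 and ranged widely elsewhere, from 6.47 to 11.8. Its mean offset of 3.0 ± 0.57 became 2.61 without the array labelled high WSS replicate 3. CCL20, which draws cells bearing CCR6, had a mean offset of 2.96, CXCL5 of 2.17, GRO1 of 1.63 and CCL26, an eosinophil attractant, of 1.52. CXCL12, which is made constitutively, had a mean offset of −0.24, and CXCL3 of 0.47. CXCL2, CXCL3 and GRO1 are close paralogs, and their probe sets may share signal.

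**Figure D1:**
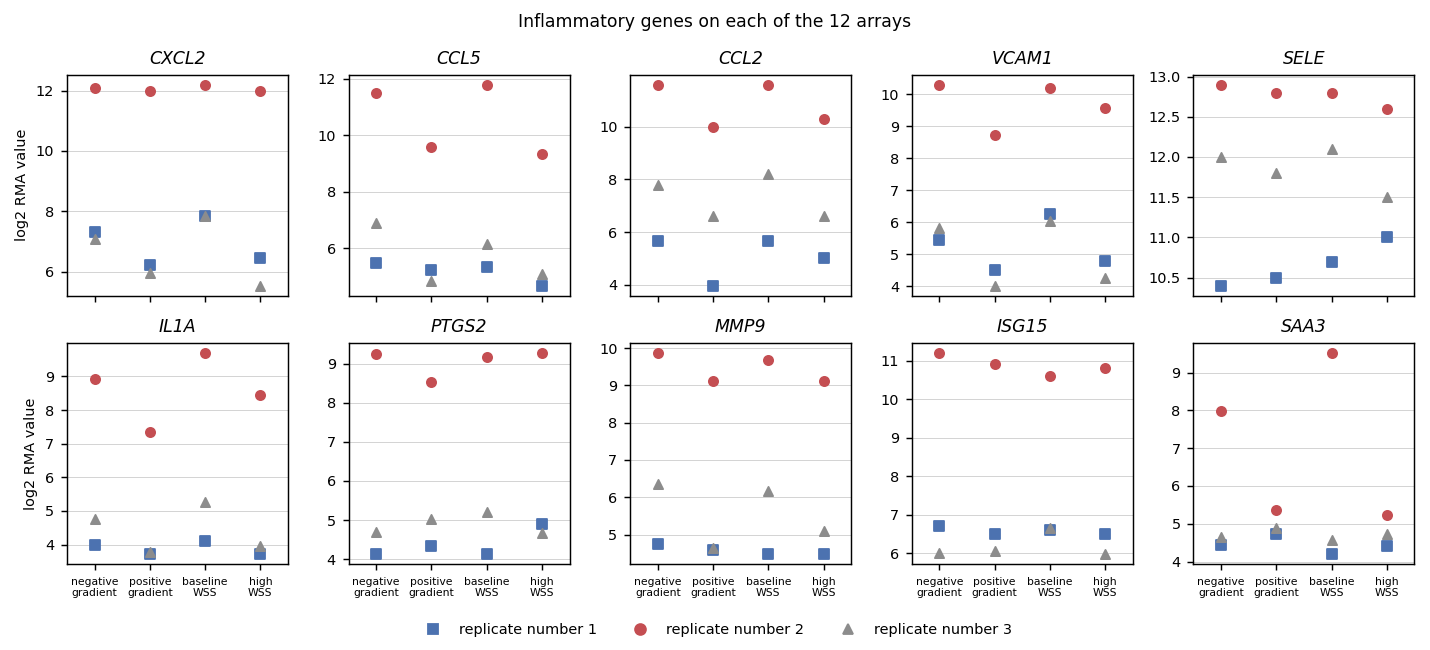
Log2 RMA values (vertical axes) of 10 inflammatory genes in the 4 flow groups (horizontal axis), with 1 point per array and the replicate number shown by colour and shape. In every panel and flow group the point of number 2 is the highest, and for SAA3 it is far above the others under baseline WSS and the negative gradient, at 9.52 and 7.97.

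Of the 7 measured cytokines and colony-stimulating factors, 4 had the number 2 array on top in every flow group. IL1A, the alarm cytokine that endothelium holds inside the cell, read 8.93, 7.36, 9.70 and 8.44 in the number 2 arrays, in the order negative gradient, positive gradient, baseline and high stress, against 3.72 to 5.26 elsewhere. The groups were well apart (mean offset 4.44 ± 0.24, 21.8-fold), and a second probe set of the gene had a mean offset of 3.97. IL1B, its secreted relative, was dim in all arrays, at 5.79, 4.29, 5.94 and 4.67 against 3.44 to 4.36. CSF2, the granulocyte-macrophage growth factor, had a mean offset of 2.28 and CSF1, that of macrophages, of 1.82. IL18 went the other way, with all 4 number 2 arrays below the 8 others and a mean offset of −0.70 ± 0.11.

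Among 13 leukocyte adhesion molecules, 6 had the number 2 array on top in every flow group and 1, the scavenger receptor STAB1, had it at the bottom. The median of the list was 0.08, and 0.23 without positive gradient replicate 2. VCAM1, the ligand of the integrin VLA-4, read 10.3, 8.73, 10.2 and 9.57 in number 2, against 4.01 to 6.25 with a median of 5.11 elsewhere. It was low in all other arrays and lay 24.0-fold higher in number 2 (mean offset 4.59 ± 0.16). ICAM1, the ligand of leukocyte β2 integrins, read 10.3, 9.14, 10.1 and 8.67 against 7.12 to 7.89 (mean offset 2.10 ± 0.19). The rolling receptors SELE and SELP, E-selectin and P-selectin, were bright everywhere, and their mean offsets were 1.51 ± 0.32 and 1.42 ± 0.13 with no overlap between number 2 and the rest. The mean offsets of F11R, JAM3, CD99 and ALCAM, which sit at cell contacts, lay between −0.0748 and 0.0781. For ALCAM that mean joined −0.507 in the gradient groups with 0.357 in the uniform-flow groups.

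Of 20 measured receptors for cytokines and microbial patterns, 9 had the number 2 array on top in every flow group and the median was 0.27. IL18R1, a chain of the interleukin 18 receptor, had a mean offset of 1.79 ± 0.17, with values of 6.99, 6.23, 7.83 and 6.90 against 4.58 to 5.72. IFNAR2, a chain of the type I interferon receptor, had 0.78, OSMR, the oncostatin M receptor, 0.67, and TLR4, the lipopolysaccharide receptor, 0.51, while CD14 had 1.86 ± 0.25. TLR2, the receptor of bacterial lipoproteins, had a mean offset of −0.38.

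All 23 measured genes of the list for NF-kB factors, targets and feedback had a positive mean offset, with a median of 0.83, and 18 had the number 2 array on top in every flow group. The subunits NFKB1 and RELA had mean offsets of 0.84 and 0.35. Feedback inhibitors were further apart. NFKBIA, the IkB protein that NF-kB itself induces, read 11.6, 11.2, 11.2 and 10.9 in number 2 against 9.39 to 10.2 elsewhere (mean offset 1.37 ± 0.108), and NFKBIE, TNIP1 and ZC3H12A had 1.27, 1.61 and 1.09. NFKBIZ, a nuclear IkB, had 2.25 ± 0.34 in its brighter probe set and 0.15 in its other one. The survival factors BIRC3, BCL2A1 and CFLAR had 1.82, 1.27 and 0.83.

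Among the effector genes of that list, PTGS2, the inducible cyclooxygenase, read 9.24, 8.54, 9.17 and 9.28 in number 2, in the order of flow groups used above, against 4.13 to 5.20 elsewhere. Its number 2 arrays were close together and its mean offset was 4.42 ± 0.21, or 21.4-fold. TNFAIP6, a hyaluronan-binding protein released in inflammation, had 3.21 ± 0.27, and its other, dimmer probe set had 6.15. SOD2, the mitochondrial superoxide dismutase, read 12.0, 10.6, 12.6 and 10.9 against 8.75 to 9.39 (mean offset 2.47 ± 0.26).

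PTGS2 is also 1 of 9 measured genes of the prostanoid and phospholipase list, in which 5 mean offsets were negative, 3 genes had number 2 on top in every flow group and 1 had it at the bottom. The median of that list was −0.10, with a range from −0.16, without baseline WSS replicate 2, to −0.06, without high WSS replicate 2. PTGES, the inducible prostaglandin E synthase, had a mean offset of 1.44, which became 0.84 without baseline WSS replicate 2, and PTGR1, a reductase that inactivates prostaglandins, had −0.57.

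SAA3, an acute-phase serum amyloid A, was the most uneven of the inflammatory genes. Its number 2 arrays read 7.97 under the negative gradient, 5.37 under the positive gradient, 9.52 at baseline and 5.22 at high stress, while all the others lay between 4.20 and 4.89. The mean offset of 2.45 ± 0.55 became 1.55 without baseline WSS replicate 2. Factor B of complement, CFB, had a mean offset of 1.59 ± 0.20, while complement C3 had 0.16.

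Interferon-induced genes were divided. Of 27 measured, 23 had a positive mean offset and 11 had the number 2 array on top in every flow group, but the median was 0.27, and 0.43 without positive gradient replicate 2. ISG15, a ubiquitin-like modifier, read 11.2, 10.9, 10.6 and 10.8 in number 2 against 5.98 to 6.70 with a median of 6.50 elsewhere, so the groups were far apart (mean offset 4.53 ± 0.17, 23.2-fold). The antiviral proteins RSAD2 and MX1 had mean offsets of 2.64 ± 0.17 and 2.58 ± 0.10, also without overlap. IFI27 had 1.07, GBP5 0.95 and IFI6 0.87, while IFIT5, IFITM1, USP18 and GBP1 lay between −0.0301 and 0.21 and the transcription factor IRF3 had −0.32.

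Every one of the 14 measured genes of antigen presentation had a positive mean offset, between 0.24 and 0.85, and 10 had the number 2 array on top in every flow group. In none of them did the 4 number 2 arrays clear all 8 others. PSMB9, a subunit of the immunoproteasome, and ERAP1, which trims peptides in the endoplasmic reticulum, each had 0.85, TAP1, a chain of the peptide transporter, had 0.69, and B2M, the light chain of class I molecules, had 0.26.

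Single genes of secreted and matrix-acting proteins outside these lists reached the same range. INHBA, the activin A subunit of the TGF-beta family, read 9.99, 9.77, 9.78 and 10.0 in number 2 against 4.95 to 5.71 (mean offset 4.56 ± 0.15, 23.7-fold). MMP9, a gelatinase, read 9.87, 9.12, 9.69 and 9.11 against 4.48 to 6.36 (mean offset 4.38 ± 0.30). Both were nearly level across the flow groups of number 2. Their lists as a whole were not so far up. TGF-beta and BMP signalling, which holds INHBA, had 13 of 19 mean offsets positive and a median of 0.03. Matrix proteases and inhibitors, with MMP9, had 18 of 23 positive and a median of 0.23. ADAMTS4, an aggrecanase, had 2.34, and CTSC, the peptidase that activates granule proteases, had 2.29. ITGAV, the integrin αV chain, had 1.13. TIMP3, the matrix-bound inhibitor of metalloproteases, had −1.03 ± 0.15.

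Genes of cell division were on the other side. All 68 measured genes of the list for G2/M and mitosis had a negative mean offset, with a median of −0.72, and in 52 the number 2 array was the lowest of the 3 in every flow group. Of the 51 measured genes of G1/S and DNA replication, 50 had a negative mean offset, the median was −0.49 and 25 had number 2 at the bottom everywhere. In each of these lists only 1 gene had all 4 number 2 arrays below all 8 others, and the levels also varied between flow groups. The most negative mean offset in these lists was −1.20.

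ASPM, which organises spindle poles, read 5.55 under the negative gradient, 6.15 under the positive gradient, 5.53 at baseline and 7.16 at high stress in number 2, against 6.28 to 8.39 elsewhere. Its ranges overlapped, though within each flow group number 2 was lowest (mean offset −1.20 ± 0.26, 2.29-fold lower). CCNA2, the cyclin of S and G2 phase, read 6.04, 7.09, 5.64 and 7.55 against 6.50 to 8.69 (mean offset −1.12 ± 0.28), and CCNB1, the mitotic cyclin, had −1.07 ± 0.32. The checkpoint kinase BUB1B had −1.10, the APC/C inhibitor FBXO5 −1.09 and the kinase CDK1 −0.97. In the G1/S list CCND1, the cyclin that answers to growth factors, had −0.89, RRM2, the regulated subunit of ribonucleotide reductase, −0.85, TYMS, thymidylate synthase, −0.78 and the replication clamp PCNA −0.59.

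**Figure D2:**
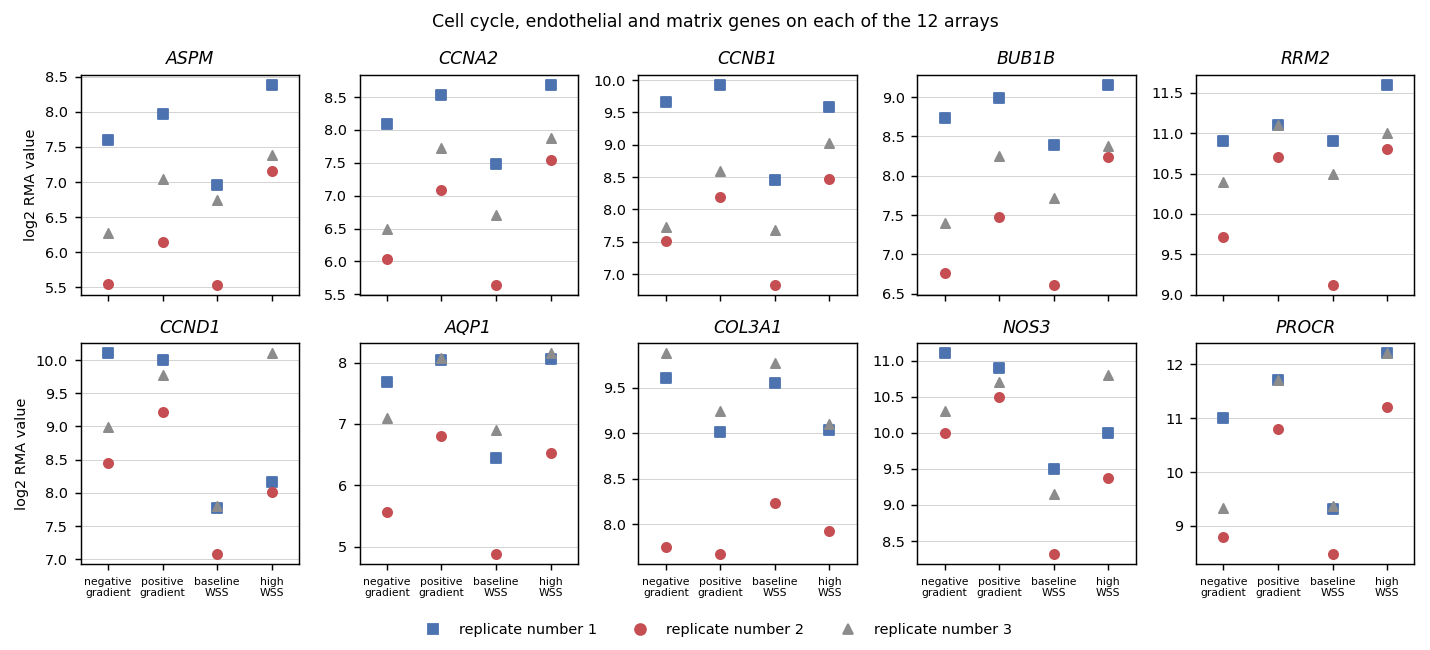
Log2 RMA values (vertical axes) of 10 genes with a negative mean offset in the 4 flow groups (horizontal axis), with 1 point per array and the replicate number shown by colour and shape. In every panel and flow group number 2 is the lowest point. For ASPM, CCNA2, CCNB1 and BUB1B number 1 is the highest.

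Of 18 measured inhibitors of the cycle and p53 targets, 12 had a negative mean offset and 6 a positive one. Number 2 was at the bottom in every flow group in 7 and on top in 1, and the median was −0.23, or −0.14 without negative gradient replicate 2. RPRM, a p53-induced inhibitor of G2 exit, read 9.92, 8.87, 10.4 and 8.84 in number 2 against 6.78 to 8.69, so its groups did not overlap (mean offset 1.78 ± 0.13). PLK2, KLF4, CDKN2C and CCNG1 had −0.87, −0.83, −0.54 and −0.40.

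Several genes typical of quiescent, flow-adapted endothelium had lower values in number 2. AQP1, a water channel, had the most negative mean offset of all named genes, reading 5.56, 6.80, 4.88 and 6.52 against 6.45 to 8.15 elsewhere (−1.62 ± 0.14, 3.07-fold lower). PROCR, the protein C receptor of the anticoagulant pathway, had −1.02 ± 0.22, ASS1, the argininosuccinate synthase that recycles citrulline, −0.96, PTPRB, an endothelial tyrosine phosphatase, −0.94, and NOS3, the endothelial nitric oxide synthase, −0.77 ± 0.18. The lists to which they belong were less uniform. Among all 3977 named genes 2218 had a negative mean offset. Of 22 genes listed for KLF2 and the laminar-flow response 13 had a negative mean offset (median −0.13), and TFPI2 and PLPP3 had 0.90 and 0.77. Of 15 endothelial markers 12 did (median −0.12), among them the transcription factors SOX18 at −0.72 and ERG at −0.49, while the guidance receptor ROBO4 had 1.03 ± 0.15.

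The remaining genes at the lower end have varied roles. COL3A1, a fibrillar collagen chain, read 7.75, 7.67, 8.23 and 7.92 in number 2 against 9.01 to 9.88, a gap with no overlap (mean offset −1.51 ± 0.13). HOPX, a homeodomain protein, had −1.55, SCARA5, a ferritin receptor, −1.53, LMO7, a protein of adherens junctions, −1.39, ENO3, the muscle enolase, −1.31, and CCN5, a matricellular protein, −1.25. The extracellular matrix list as a whole had 19 of 37 mean offsets positive and a median of 0.02, which became −0.06 without baseline WSS replicate 2.

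The lists below are to be read beside all 3977 named genes, of which 2218 had a negative mean offset. Number 2 was on top in every flow group in 10.2% of these and at the bottom in 11.3%. Of 65 subunits of oxidative phosphorylation 63 had a negative mean offset and 18 (27.7%) had number 2 at the bottom in every flow group. Their median was −0.18 and the most negative was −0.36. Of 32 cytosolic ribosomal proteins 15 were positive, with a median of −0.02 (0.01 without negative gradient replicate 1), and none had number 2 at the top or bottom in every flow group. Genes of cholesterol synthesis and uptake had 17 of 20 positive (median 0.27), with CYP51A1 at 0.64 and SCD at 0.60. In 8 of the 20 (40%) number 2 was on top in every flow group. Heat shock proteins had 14 of 18 negative (median −0.09, and −0.04 without high WSS replicate 2). In the list for NRF2 and oxidative stress 20 of 28 were negative (median −0.17), yet GCLC, the catalytic subunit of glutathione synthesis, had 1.43 ± 0.17. Of the 28 genes of the unfolded protein and ATF4 response 19 were positive (median 0.24), and 12 (42.9%) had number 2 on top in every flow group.

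**Figure D3:**
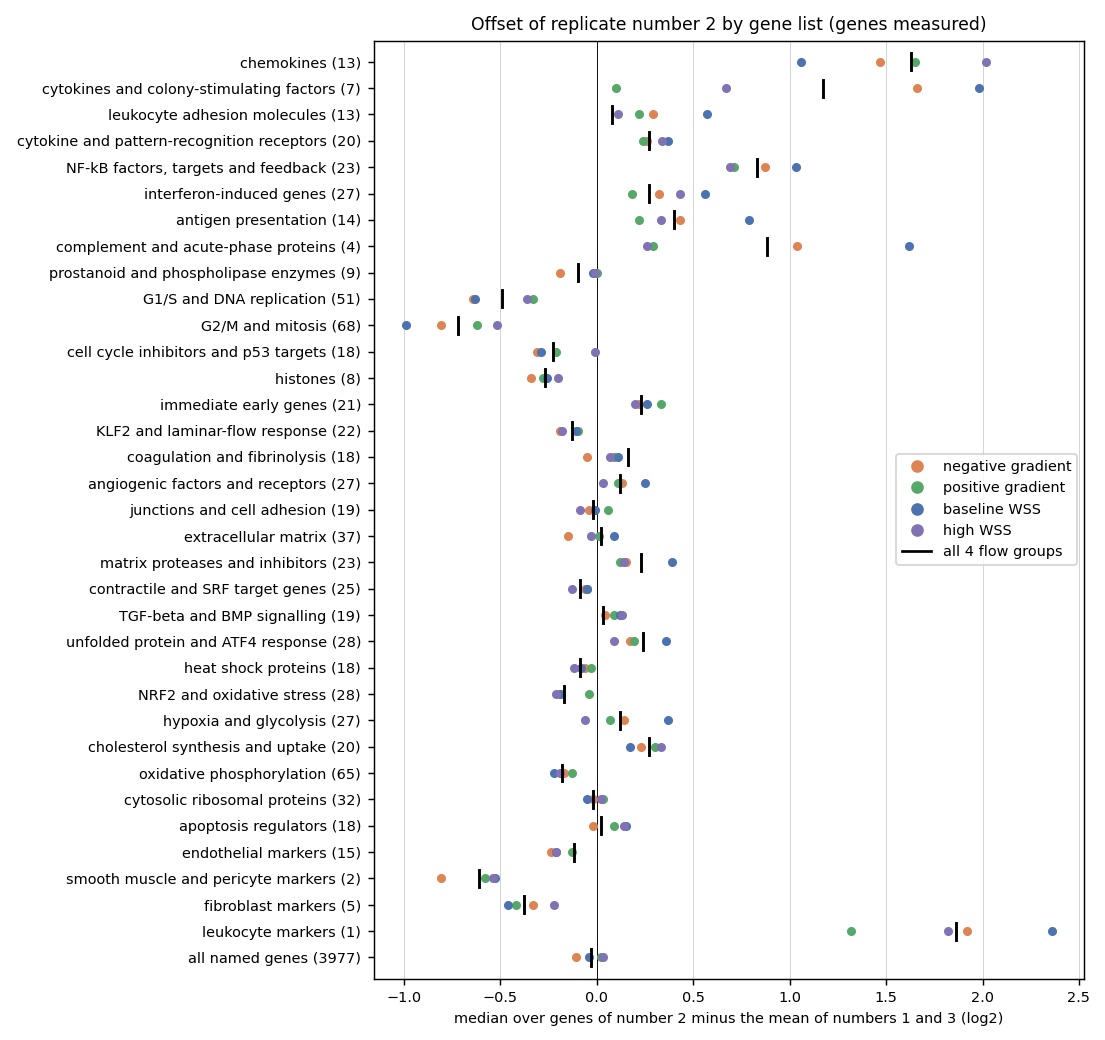
Median offset of replicate number 2 (log2, horizontal axis) for each of the 34 gene lists and for all named genes, with the number of genes measured in brackets. Each coloured point is the median in 1 flow group and the black mark is the median of the mean offsets. Chemokines, cytokines and NF-kB genes lie to the right and both cell cycle lists to the left in all 4 flow groups, whereas all named genes lie at −0.03.

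The next question was whether the offset of number 2 was the same in every flow. Across the 3977 named genes the mean offset in the gradient groups correlated with that in the uniform-flow groups with a Pearson coefficient of 0.91 and a Spearman coefficient of 0.77. This is a description across genes, which are not replicates, and the arrays share 1 platform and 1 normalization. Between single flow groups Pearson's r ran from 0.68, for baseline with high WSS, to 0.87, for baseline with negative gradient. Of the 3977 named genes, 80 were called within the 6 gradient arrays and 35 within the 6 uniform-flow arrays. Of these, 32 were common with 1 sign, which is 40% of the first list and 91.4% of the second. These calls come from the contrast that chose number 2, so nothing is read from their overlap.

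**Figure D4:**
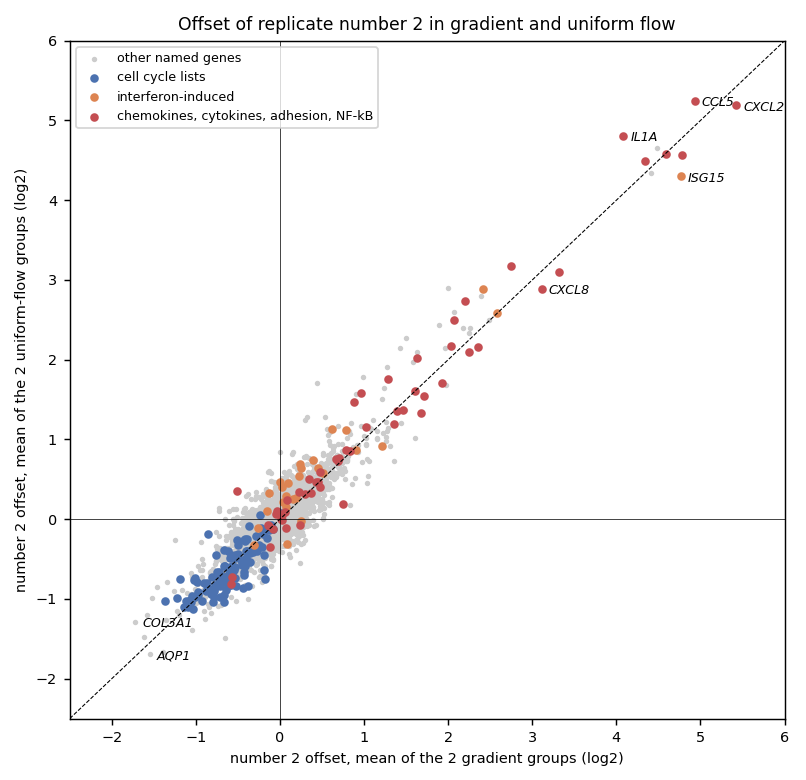
Mean offset of replicate number 2 in the 2 gradient groups (horizontal axis, log2) against that in the 2 uniform-flow groups (vertical axis, log2), 1 point per named gene, with the dashed line marking equal offsets. Inflammatory genes extend to the upper right, cell cycle genes lie to the lower left, and Pearson's r over the 3977 genes is 0.91.

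Number 2 was chosen, with these values known, for a state shared whatever the flow. Few calls for a difference between flows would thus not show that its offsets were even. A test of the difference of offsets between the 4 flow groups is given with that limit. It called 1 probe set of 24016 at an adjusted p under 0.05 (0.00416%), and 416 at an unadjusted p under 0.05. The called probe set was that of SAA3, with offsets of 5.14 in the baseline group, 3.44 in the negative gradient group, 0.65 in the high WSS group and 0.56 in the positive gradient group (adjusted p = 0.00488 by limma's F test over 3 interaction terms). All 4 offsets were positive, and the adjusted p lay between 0.0175 and 0.0346 when any array of number 1 or 3 was left out, being 0.0226 without the array labelled high WSS replicate 3. Each offset rests on a single number 2 array, so the spread of number 2 within a flow group is not measured. The difference between the gradient and the uniform groups was called in 0 probe sets by limma (0.0%), with 318 at an unadjusted p under 0.05. A p that misses the threshold does not show that offsets were equal.

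Other inflammatory genes had offsets in a similar order without passing that test. Over the 9 inflammatory lists 129 genes were measured, 71 with number 2 on top in every flow group and 4 with it at the bottom. In these 71 the median offset was 1.34 for baseline, 1.22 for the negative gradient, 0.68 for high WSS and 0.66 for the positive gradient. In 33 of them (46.5%) the offsets at baseline and under the negative gradient both exceeded those of the other two flow groups, an order that was noticed in these values. The same order held in 11.7% of all named genes and in 28.7% of the named genes with number 2 on top everywhere. All high WSS offsets include the array labelled high WSS replicate 3, whose nearest array was positive gradient replicate 3. The order was not counted without it.

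CCL20 had offsets of 4.11 and 3.84 at baseline and under the negative gradient, against 2.23 for high WSS and 1.65 for the positive gradient (adjusted p = 0.656, limma). TNFAIP6 had 3.79 and 4.41 against 2.42 and 2.24 (adjusted p = 0.464, limma). ICAM1, CCL5, IL1B, CD14 and SOD2 were ordered likewise. The neutrophil attractants ran the other way: CXCL8 had 1.59 at baseline and 2.75 under the negative gradient against 4.18 and 3.47, and CXCL5 had 0.97 and 1.19 against 3.22 and 3.30. For CXCL8 the number 2 arrays were close together, between 12.2 and 12.6, and most of the spread lay in the arrays of numbers 1 and 3. Its offset of 4.18 for high WSS rests partly on the array labelled high WSS replicate 3. That array read 6.47, against 9.55 in high WSS replicate 1, so the place of high WSS in the order of CXCL8 is uncertain. Offsets of CCL2, INHBA, MMP9 and MX1 differed between flow groups by at most 0.61.

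**Figure D5:**
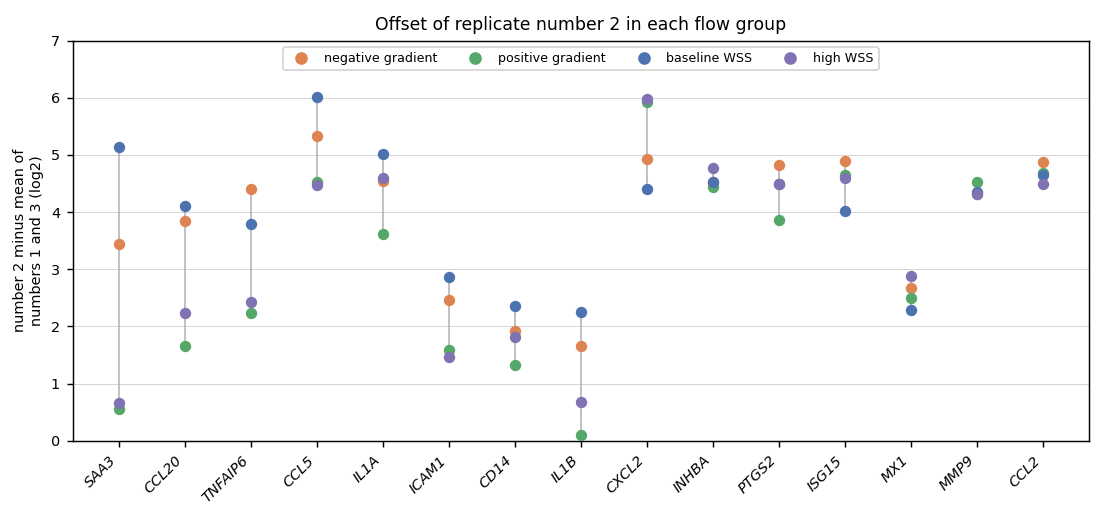
Offset of replicate number 2 (vertical axis, log2) in each of the 4 flow groups for 15 inflammatory genes, with 1 coloured point per flow group and a grey line over their range. SAA3 spans 0.56 to 5.14, CCL20 and TNFAIP6 are higher at baseline and under the negative gradient, and CXCL2 is higher in the high WSS and positive gradient groups.

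Numbers 1 and 3 were compared next, in a contrast independent of that of number 2. Since number 2 was the number set aside with the values known, the arrays left for this test were not a free choice. The limma fit called 347 probe sets (1.44%), of which 226 were higher in number 1 (0.941%) and 121 lower (0.504%). Centring each array on its median gave 320 higher and 100 lower. Leaving out any single array gave between 18 calls, without positive gradient replicate 1, and 265. In the gradient arrays alone 869 were called and in the uniform-flow arrays alone 0, with 2311 there at an unadjusted p under 0.05. Among named genes 150 were called (3.77%), 106 higher in number 1 (2.67%) and 44 lower (1.11%).

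Cell cycle genes were higher in number 1 than in number 3. Most named genes, 2806 of 3977, also had higher values in number 1. Of the 68 genes of the G2/M list 67 had higher values in number 1 and 24 passed the test, all higher. The median difference of that list was 0.56, against 0.12 over all named genes. In the G1/S list 46 of 51 had higher values and 2, GINS4 and ORC6, passed. CCNB1 read 9.66, 9.93, 8.45 and 9.58 in number 1 under the negative gradient, the positive gradient, baseline and high stress, against 7.73, 8.60, 7.68 and 9.02 in number 3. It was higher in 4 of 4 flow groups (log2 difference 1.15, adjusted p = 0.0216, limma). SMC4, a condensin subunit, rose by 1.17 on the log2 scale in number 1 relative to number 3 (adjusted p = 0.0205, limma), also in 4 of 4.

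Together with the offsets of number 2 this gave an order of the 3 numbers. In 43 of the 68 G2/M genes and in 19 of the 51 G1/S genes number 1 exceeded number 3 and number 3 exceeded number 2 in all 4 flow groups, against 4.22% of all named genes. The opposite order, number 2 over 3 over 1 in all 4 flow groups, held for 13 of the 129 inflammatory genes and for 1.76% of named genes.

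Over the 129 inflammatory genes the median difference of number 1 minus number 3 was −0.01, against 0.12 over all named genes. The called genes, however, lay on 1 side. In 9 of the 129 (6.98%) number 1 was called lower and in 0 higher. Among all named genes 1.11% were called lower and 2.67% higher. The 9 genes were CCL2, NFKBIZ, SELE, BIRC3, BCL10, an adaptor upstream of NF-kB, and the receptors TLR2, CXCR4, OSMR and CD40. CCL2 read 5.67, 3.96, 5.67 and 5.02 in number 1 against 7.77, 6.60, 8.22 and 6.61 in number 3, in the order of flow groups used above. Number 3 was thus between the other numbers in every flow group (log2 difference −2.22, adjusted p = 0.000103, limma). SELE fell by 1.19 on the log2 scale from number 3 to number 1 (adjusted p = 0.0114, limma) and NFKBIZ fell by 1.28 (adjusted p = 0.00827, limma), each in 4 of 4 flow groups.

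Other genes also separated numbers 1 and 3. ANXA8L1, an annexin gene, had a difference of −2.29 (adjusted p = 0.0182, limma), and its mean offset in number 2 was 2.16. ANGPTL4, a secreted inhibitor of lipoprotein lipase, read 8.56, 8.11, 8.72 and 8.36 in number 1 against 10.3, 9.73, 10.1 and 9.73 in number 3, with number 2 close to number 3 (log2 difference −1.52, adjusted p = 0.000103, limma). SLPI, an inhibitor of leukocyte proteases, had a difference of −1.67 (adjusted p = 0.0269, limma) and its mean offset in number 2 was 2.33. SRXN1, which repairs oxidised peroxiredoxins and answers to NRF2, was higher in number 1 by 1.15 (adjusted p = 0.000857, limma) and had a mean offset of −0.93 in number 2. ADAMTS1, a matrix protease, was higher in number 1 by 1.48 (adjusted p = 0.00377, limma), with number 2 nearer to number 1 except at baseline, where its offset was −0.47. CLCA3, a chloride channel regulator, was higher in number 1 by 2.11 (adjusted p = 0.000354, limma) and had a mean offset of −1.08. SPP1, osteopontin, had a difference of −1.20 (adjusted p = 0.0226, limma) and a mean offset of −1.0.

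The comparison of flows depended on whether replicate number was in the model. A limma F test between the 4 flow groups with no term for replicate number called 383 probe sets (1.59%), and among named genes 166 (4.17%). With the replicate number as a block it called 2857 probe sets, and among named genes 1107. The test without a block also depended on single arrays. It gave 0 calls without positive gradient replicate 2 or replicate 3, and 2798 without the array labelled high WSS replicate 3.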

How the data were processed

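The authors computed the deposited log2 values with RMA from 12 Affymetrix bovine arrays, per the submitters' processing notes, which also name limma (versions not given in the sources used here). Values were used without further scaling. Of 24128 probe sets 112 controls were left out and 24016 were tested; 4726 had 1 symbol, for 3977 genes (4715 Entrez numbers matched the reference annotation), each represented by its probe set with the highest mean over the arrays. Levels are not compared between genes. Models were fitted with limma 3.58.1 in R 4.3.3 (lmFit, eBayes) on all arrays with flow group as a term; p-values were adjusted over all probe sets by the Benjamini-Hochberg method at 0.05. The fit was tested on simulated data. Named were the 15 genes at each end with number 2 outside both others in all 4 flow groups, up to 5 such genes per list, and the leading genes of the other tests; further genes in the text are list members chosen for their role after their values were seen. The contrast, the 34 lists (1487 genes, 686 measured) and the rule were chosen with earlier results of these data known. The number of arrays limits the precision.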

Additional observations from a re-analysis of the deposited data

Results flagged for a closer look

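The offsets of number 2 in the 4 flow groups were searched, in the 155 genes chosen for naming, for 1 flow group far from the others by Dixon's criterion, which chance meets about 1 time in 20. It picked 7 genes (4.52%). ASPM had an offset of −0.72 at high stress against −1.39 to −1.32 in the other flow groups, H2AZ1 of −0.40 under the positive gradient against −0.54 to −0.52, and SELP of 1.57 under the negative gradient against 1.36 to 1.38. NDUFB6 had −0.41 under the negative gradient against −0.28 to −0.25. Baseline stood apart for PDLIM4, with 1.17 against 0.61 to 0.65, for ADAMTS1, with −0.47 against 0.26 to 0.41, and for GJB2, a connexin gene, with 3.01 against 0.23 to 0.65. The mean offset of GJB2 was 1.08 and became 0.43 without baseline WSS replicate 2. SAA3 was picked because its offset differed between flow groups by the interaction test (adjusted p = 0.00488, limma).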

How the results depend on the processing

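For number 2 against the others (824 calls) array weights gave 1684, number 1 alone as reference 1497, number 3 alone 459, gradient arrays 150, uniform-flow arrays 69, and leaving out 1 array 335 to 1122. For number 1 against 3 (347) a trended prior gave 852, the probe sets brighter than the median 947, array weights 1479, the probe sets of the series matrix 736, gradient arrays 869, uniform-flow arrays 0, and leaving out 1 array 18 to 265, with only baseline WSS replicate 2 (259) and high WSS replicate 2 (265) changing it by less than 1.5 times. The offset by flow gave 0 calls among the brighter probe sets, which do not hold SAA3 (82 at an unadjusted p under 0.05), and 1 call in 8 fits without an array of number 1 or 3; the 4 without a number 2 array could not be fitted. With a term for numbers 1 and 3, chosen after seeing the data, SAA3 had an adjusted p of 0.00161 (limma). The flow test (383) gave 3372 with array weights, 0 to 2798 without 1 array, 2857 with the replicate number as a block and 1579 with number 2 alone as a block. Without a block it called 166 of the 3977 named genes, but 0 of the 68 G2/M genes, 0 of the 51 G1/S genes and 0 of the 13 chemokines. The replicate block gave 1107 of the 3977 named genes, and 61, 32 and 6 in those lists. In 17 of 18 same-numbered pairs the deviations from flow means correlated above 0.1. All 12 arrays correlated best with an array of their own number. The pair that did not pass was of number 3 (r from −0.08 to 0.35), against 0.3 to 0.62 for number 1 and 0.4 to 0.61 for number 2. Because of that pair the numbers were not taken as a pairing, which leaves what arrays of a number share in the spread of the unblocked flow test. Over the 34 lists 45 of 612 alternative medians moved beyond the spread of the offsets and 21 changed sign. In the 5 lists followed most closely they moved for chemokines averaged over all probe sets (2.17), interferon-induced genes in uniform flow (0.46), and, with number 1 or number 3 alone as reference, for G1/S (−0.68, −0.29) and G2/M (−1.03, −0.44). Centring arrays, chosen after seeing the data, moved none of these 5 medians beyond their spread. Of 155 named genes 9 moved by over 1.5 times without 1 array, among them SAA3, PTGES and GJB2 without baseline WSS replicate 2. The 4 number 2 arrays, 1 per flow group, limit what can be said of any single flow.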
